A study of Mus musculus with 16 samples.

Results

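Ly6a, Ly6c1, Ly6c2, Ly6e and Plac8 were followed in single-cell RNA profiles of CD8+ T cells from mouse kidney allografts and spleens. These 5 genes were taken by name from the 32285 genes listed in at least 1 of 9 CD8 matrices, and all 5 were listed in each of the 9. The accepted model placed a DBA/2J kidney in a C57BL/6J (B6) recipient, and its graft and recipient spleen were sampled at 1, 3 and 24 weeks. The rejecting model was the reverse, a B6 kidney in a DBA/2J recipient, with graft and recipient spleen at 1 week. Spleens of naive mice without a transplant were the baseline. The deposited labels give C57BL/6J and a wild-type genotype for every sample, also for the rejecting recipients, and the ages of the mice were not given in the sources used here. The study transplanted kidneys with removal of both native kidneys, used male mice, sorted viable CD45+ cells and took the CD8+ T cells from them. Each matrix held several library tags in its cell barcodes, 32 in all: 3 each for the accepted grafts and spleens at 1 and 24 weeks, 5 each at 3 weeks, 2 for the rejecting graft (numbered 2 and 3), 3 for the rejecting spleen and 5 for naive spleen. A tag is called a library here, and p-values measure the spread between these libraries.

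The Ly6 genes encode small cysteine-rich proteins that are held on the cell surface by a glycolipid anchor. Ly6a encodes Sca-1, known as a stem cell marker and as a surface protein that T cells gain on activation and under interferon. Ly6c1 and Ly6c2 encode 2 near-identical forms of Ly6C, the antigen used to separate classical monocytes and to mark antigen-experienced CD8+ T cells. Ly6e is broadly expressed in lymphocytes and is interferon-inducible. Plac8, also called onzin, encodes a small intracellular cysteine-rich protein that is not related to the Ly6 family and is abundant in myeloid cells, B cells and activated T cells.

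In the GRCm38 annotation, 4 of the 5 genes lie side by side on chromosome 15. Ly6e, on the plus strand, spans chr15:74955051-74959905, and Ly6a (chr15:74994877-74998031), Ly6c1 (chr15:75044018-75048830) and Ly6c2 (chr15:75108158-75111970) follow it on the minus strand. Plac8 is on chromosome 5, on the minus strand at chr5:100553725-100572245. Reads of a 3′ assay come from the ends of the transcripts, and over the last 500 bases Ly6c1 and Ly6c2 were 95.46% identical in an alignment of 507 columns, with 484 identical bases. Ly6a was 83.79% identical to Ly6c1 and 85.18% to Ly6c2 there, and Ly6e at most 48.14% identical to any of them. A window of 50 bases was shared exactly with another gene at 29.21% of positions in the Ly6c1 ends, 34.79% in the Ly6c2 ends and 8.128% in the Ly6a ends, and at none in Ly6e or Plac8. Counts of Ly6c1 and Ly6c2 are therefore uncertain to the extent that reads in those windows were dropped or split, and whether DBA/2J alleles, which the rejecting recipients carried, changed the read assignment was not tested.

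The promoters of 3 of the 5 members were in the RefSeq table (GRCm38.p6). The 250 bases before the start of Ly6c1 and Ly6c2 are shown because the transcripts of these genes are near-identical at their ends and their counts were not alike across the cells below. Capitals mark runs of at least 12 bases that the pair share. Both are read 5′ to 3′ on the minus strand, Ly6c1 at chr15:75048838-75049087 and Ly6c2 at chr15:75111972-75112221.
Ly6c1: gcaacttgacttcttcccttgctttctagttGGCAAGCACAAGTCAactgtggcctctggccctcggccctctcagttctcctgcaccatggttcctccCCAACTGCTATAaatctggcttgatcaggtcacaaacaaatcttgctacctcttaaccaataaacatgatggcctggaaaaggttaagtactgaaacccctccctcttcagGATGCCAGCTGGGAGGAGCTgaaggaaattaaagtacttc
Ly6c2: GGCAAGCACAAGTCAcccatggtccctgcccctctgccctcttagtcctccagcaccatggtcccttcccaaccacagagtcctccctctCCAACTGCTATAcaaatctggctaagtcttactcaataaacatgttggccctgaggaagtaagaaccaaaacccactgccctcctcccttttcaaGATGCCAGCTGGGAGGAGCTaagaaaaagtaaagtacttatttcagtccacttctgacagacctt
Only 47 bases of each lay in such shared runs, and an alignment gave 57.75% identity over 284 columns, against 95.46% at the transcript ends. Of those columns 164 were identical, 52 were mismatches and 68 were gaps. The windows are offset, since the first shared run opens the Ly6c2 window and lies further in for Ly6c1. Part of the gap columns is therefore overhang, and the 57.75% understates the identity of the stretch that both windows cover. Plac8, at chr5:100572206-100572455 on the minus strand, is shown with matches to the T-box letters GGTGTGA and to the RUNX letters TGTGGT, or their reverse complements, in capitals.
Plac8: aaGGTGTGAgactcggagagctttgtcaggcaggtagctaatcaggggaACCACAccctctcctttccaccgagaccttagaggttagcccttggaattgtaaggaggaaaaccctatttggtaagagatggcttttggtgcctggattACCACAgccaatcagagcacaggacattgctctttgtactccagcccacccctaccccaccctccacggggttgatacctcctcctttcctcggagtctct
The T-box letters occurred in 3.31% of 27025 RefSeq promoters of the same length, searched on both strands, and once in Plac8, 248 bases before its start. The RUNX letters occurred in 14.2% of those promoters, with 1 match in Ly6c2, 179 bases before its start, 2 in Plac8 and none in Ly6c1. The GAS letters TTCNNNGAA (7.18% of promoters), the ISRE core GAAANNGAA (7.16%) and the ETS letters CCGGAAG (7.05%) were not found in these 3 windows. A match is a description of the letters and not a binding site.

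The matrices held 726 (rejecting spleen) to 22206 cells (3 week graft) and 153266 to 25960721 UMIs (unique molecular identifiers, 1 per captured transcript) per library, with a median of 1631 to 5420 UMIs per cell. Libraries shared at most 21 cell barcodes with another, 0.411% of the smaller library, apart from 1 of 56 cells in rejecting spleen library 2. Cells with a Cd8a or Cd8b1 UMI and no Cd4 UMI made up 80.4 to 87.6% of the 1 week graft libraries, 95.4 to 96.4% at 3 weeks and 93.7 to 96.9% in naive spleen, but 40.4 to 47.8% in the recipient spleens at 1 week and 42.2 to 50.1% at 3 weeks. Cells with a Cd4 UMI and no CD8 UMI made up 10.0 to 13.5% and 17.4 to 23.0% of those spleen libraries, against 0.307 to 1.23% in naive spleen, so the labelled cell type was not pure there. The main results that involve a recipient spleen are therefore given for all cells and also for the cells with a CD8 UMI and no Cd4 UMI, called CD8-UMI cells below. In cell composition the 24 week matrices were unlike the 3 week matrices of the same tissue label. The libraries labelled kidney held 44.9 to 47.6% CD8-UMI cells, and those labelled spleen 92.1 to 94.2%. Over 8 naive cell genes they held 3049 to 3212 and 533 to 557 CPM (the usual per-library scaling of UMIs to a common total). In both measures the labelled kidney sat beside the 3 week spleen and the labelled spleen beside the 3 week graft. The CD8-UMI share alone does not mark the tissue, since naive spleen held 93.7 to 96.9% and the rejecting spleen 98.2 to 99.7%. The 24 week values are given under the deposited labels with that limit. B cell markers summed to 545 to 1070 CPM in the 1 week recipient spleens and 28.9 to 58.5 CPM in naive spleen, and their part in the member levels was not tested. In summed counts, fewer cells of a type and less RNA per cell cannot be told apart.

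Ly6c2 fell in the graft between 1 and 3 weeks, and no change was called in the recipient spleen. Its level in the 1 week grafts was 335, 294 and 228 CPM in libraries 1 to 3. At 3 weeks the 5 grafts gave 69.4, 66.2, 53.2, 57.8 and 55.6 CPM, all below every 1 week library. The log2 fold change from 1 to 3 weeks was -2.24 ± 0.12 (SE, n = 3 and 5, edgeR quasi-likelihood test, adjusted p = 1.43e-09), a level 0.212 times that at 1 week. In the recipient spleens Ly6c2 was 218, 298 and 270.3 CPM at 1 week and 279.7, 280.4, 301, 280.0 and 285 CPM at 3 weeks, so the 3 week values lay inside the 1 week range apart from library 3. That difference was 0.12 ± 0.09 on the log2 scale (edgeR adjusted p = 0.247), and 0.08 in CD8-UMI cells (edgeR adjusted p = 0.476). The change in the graft differed from that in the spleen by -2.36 ± 0.16 log2 units (edgeR interaction test, adjusted p = 5.24e-10), and by -2.41 in CD8-UMI cells (edgeR adjusted p = 5.1e-10). Of all 12319 genes tested for that difference 40.1% passed, and 33.1% in CD8-UMI cells.

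The share of cells with a Ly6c2 UMI moved with the level. After each cell was thinned to 1000 UMIs, 24.0, 22.6 and 18.2% of the 1 week graft cells had one, against 4.76, 3.94, 3.70, 3.74 and 3.48% at 3 weeks. The difference of -17.7 percentage points had a two-sided exact permutation p of 0.0357, the smallest that 5 libraries against 3 allow. Before thinning the means were 35.1% and 6.66%. In naive spleen, B cells by marker, which should lack the gene, had a Ly6c2 UMI in 0.810% of thinned cells at a median of 2676 UMIs per cell, and cells with CD8 and CD3 UMIs in 20.2% at a median of 4525. The 3 week graft share lay above that B cell share in all 5 libraries.

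Naive CD8+ T cells already carried Ly6c2, and at a level near that of the recipient spleens. The 5 naive libraries gave 383, 319.8, 391, 340.1 and 317 CPM. Against them the recipient spleens were lower over all cells, by -0.42 ± 0.10 at 1 week (edgeR adjusted p = 0.00147) and -0.30 ± 0.07 at 3 weeks (edgeR adjusted p = 0.00149, but 0.171 in 1 fit over all 9 groups). In CD8-UMI cells the direction turned. These gave 358, 469 and 411 CPM at 1 week, 393, 443, 431, 425 and 494 CPM at 3 weeks, and 382, 319, 397, 339 and 311 CPM in naive spleen, which is 0.24 ± 0.09 (edgeR adjusted p = 0.0379) and 0.32 ± 0.07 (edgeR adjusted p = 0.00379) above naive. The thinned share in CD8-UMI cells was 24.4% ± 1.1 (SD, n = 5) at 3 weeks and 19.2% ± 2.9 (SD, n = 5) in naive spleen, an exact permutation p of 0.0159, against 14.5% and 19.6% over all cells.

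**Figure D1:**
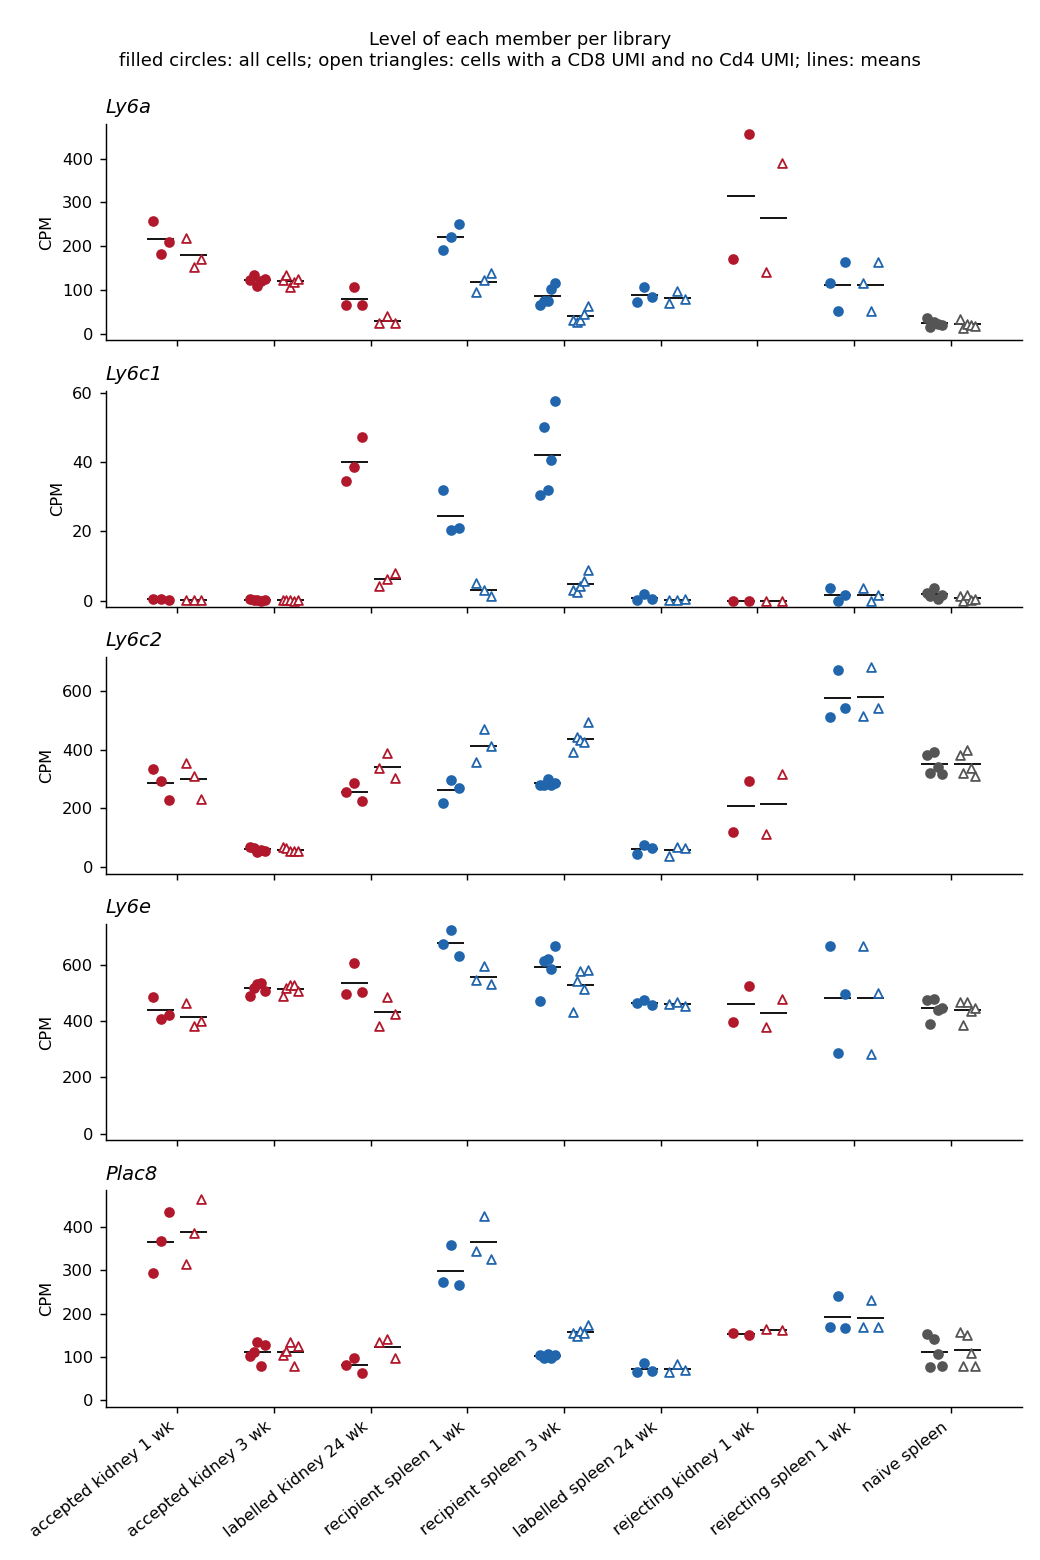
Level of each member in every library, in CPM (y axis), by group (x axis). Filled circles are all cells, open triangles the cells with a CD8 UMI and no Cd4 UMI, and lines are group means. Ly6c2 sits at 53.2 to 69.4 CPM in the 3 week grafts and 317 to 391 CPM in naive spleen, and Ly6c1 rises above 20 CPM in no group other than the recipient spleens at 1 and 3 weeks and the libraries labelled kidney at 24 weeks.

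Ly6c1 was higher in the recipient spleens than in naive spleen and near the counting floor in the grafts. The recipient spleens held 31.9, 20.3 and 21.1 CPM at 1 week and 30.5, 50.1, 31.9, 40.6 and 57.7 CPM at 3 weeks. In naive spleen the 5 libraries gave 2.11, 1.39, 3.59, 0.606 and 1.57 CPM, so no library of either recipient spleen group overlapped them. The log2 fold changes over naive were 3.72 ± 0.27 (edgeR adjusted p = 9.06e-09) and 4.50 ± 0.25 (edgeR adjusted p = 2.26e-13). Within CD8-UMI cells the levels were 3.10 and 4.94 CPM against 0.727 CPM in naive spleen, too low to be fitted, and the thinned share was 0.262 percentage points above naive at 1 week (exact permutation p = 0.0357) and 0.237 at 3 weeks (exact permutation p = 0.167). In the grafts Ly6c1 was close to the counting floor, with 7, 8 and 6 UMIs in the 3 libraries at 1 week and 4, 1, 3, 0 and 1 UMIs at 3 weeks. The rejecting grafts held 0 UMIs in 2184 cells, which allows up to 0.5496 CPM over both libraries (3 counts, counting error only).

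The cells that held Ly6c1 in the recipient spleens were mostly not CD8-UMI cells. At 3 weeks Ly6c1 stood at 95.3 CPM in cells with a Cd4 UMI and no CD8 UMI and at 4.94 CPM in CD8-UMI cells, and Ly6c2 at 13.7 and 437 CPM in the same cells. At 1 week the values were 40.0 and 3.10 CPM for Ly6c1, and 15.8 and 413 CPM for Ly6c2. In thinned cells at 3 weeks a Ly6c1 UMI was found in 7.05% of Cd4-UMI cells and 0.294% of CD8-UMI cells, in the same direction in all 5 libraries, and a Ly6c2 UMI in 0.793% and 24.4%. Naive spleen B cells by marker had a Ly6c1 UMI in 0.0317% of thinned cells. Single cells rarely held both. Of 601 cells with a Ly6c1 UMI at 3 weeks, 22 had a Ly6c2 UMI (3.66%), against 25.6% of all cells, and at 1 week 37 of 636 did (5.82%, against 24.5%). In naive spleen, where Ly6c1 was rare, 12 of 29 Ly6c1 cells had Ly6c2 (41.4%), close to the 38.5% of all cells. In the 3 week graft 1 library reached 22 Cd4-UMI cells, too few to compare, and it is not shown. The lower level of Ly6c1 in the graft than in the spleen, -5.91 ± 0.31 at 1 week (edgeR adjusted p = 1.56e-07) and -7.82 ± 0.31 at 3 weeks (edgeR adjusted p = 8.61e-14), became -3.67 (edgeR adjusted p = 0.000223) and -4.76 (edgeR adjusted p = 4.03e-08) in CD8-UMI cells. Those fold changes depend on the prior count of the fit because the graft libraries are near the floor.

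**Figure D2:**
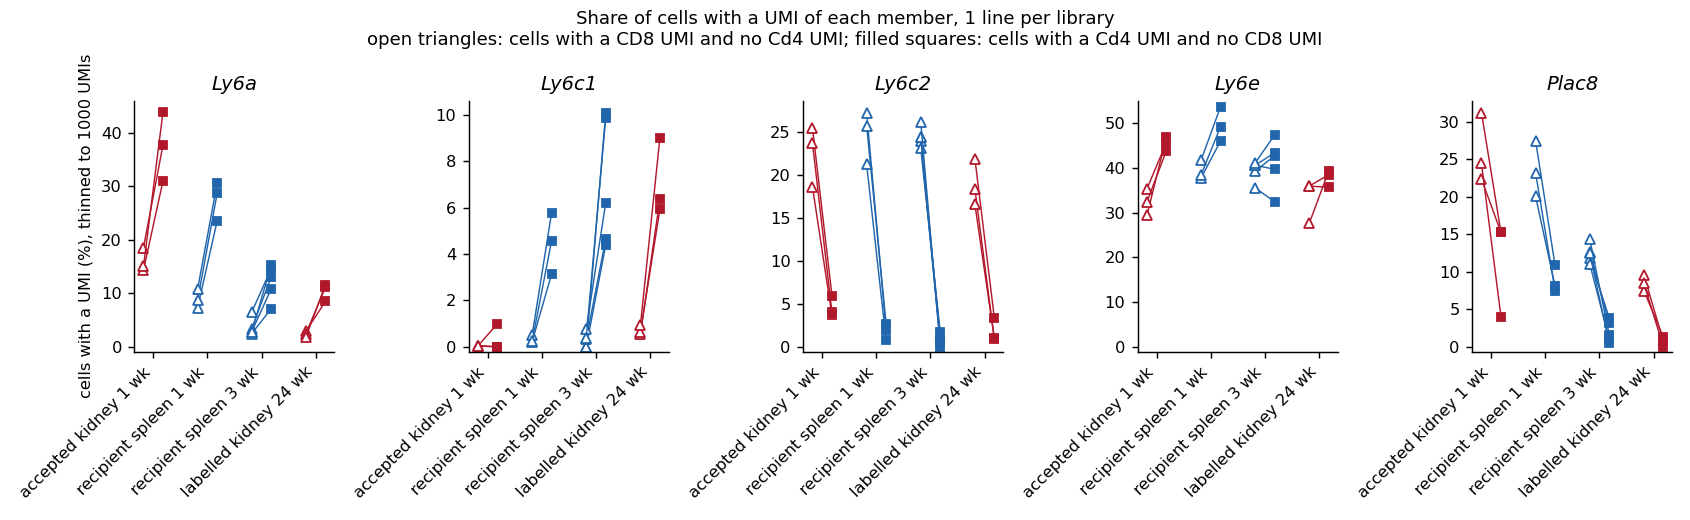
Share of cells with a UMI of each member after thinning to 1000 UMIs per cell (percent, y axis), in cells with a CD8 UMI and no Cd4 UMI and in cells with a Cd4 UMI and no CD8 UMI (x axis), 1 point per library, for the 4 groups in which every library had enough Cd4-UMI cells to be counted. Ly6c2 and Plac8 were higher in CD8-UMI cells and Ly6a in Cd4-UMI cells in every library shown, and Ly6c1 had means of 4.50 to 7.09% of Cd4-UMI cells in the recipient spleens and the labelled kidney at 24 weeks.

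Ly6a was low in naive cells and high at 1 week in both tissues. The naive libraries gave 36.3, 16.1, 27.6, 24.2 and 19.9 CPM. The recipient spleens gave 192, 220.2 and 252 CPM at 1 week and 65.3, 75.8, 76.2, 102 and 118 CPM at 3 weeks, all above the naive libraries. Their log2 fold changes over naive were 3.13 ± 0.15 (edgeR adjusted p = 1.41e-10) and 1.78 ± 0.16 (edgeR adjusted p = 1.52e-09), and 2.39 (edgeR adjusted p = 2.59e-09) and 0.79 (edgeR adjusted p = 0.00544) in CD8-UMI cells. CD8-UMI cells held 22.4 CPM ± 7.3 in naive spleen and 40.4 CPM ± 14.9 in the 3 week spleen (SD, n = 5 each). Among the CD45+ cells of naive spleen, those with CD8 and CD3 UMIs held 48.1 CPM ± 15.4 (SD, n = 5). A fit against that set was not made. In the grafts Ly6a was 257, 184 and 209 CPM at 1 week and 124, 135, 110.1, 120.2 and 126 CPM at 3 weeks, with no overlap, a change of -0.81 ± 0.10 (edgeR adjusted p = 3.66e-06). In the spleens it fell by 1.35 ± 0.14 on the log2 scale over the same interval (edgeR adjusted p = 1.15e-06), and by 1.59 in CD8-UMI cells (edgeR adjusted p = 1.21e-06). Ly6a fell less in the graft than in the spleen, a difference of 0.53 ± 0.20 (edgeR interaction adjusted p = 0.0372). That call was lost in 9 of 16 repeats with 1 library left out, with TMM factors (0.34, edgeR adjusted p = 0.176), with DESeq2 (0.28, adjusted p = 0.333) and without dividing cells (0.37, edgeR adjusted p = 0.139). In CD8-UMI cells the difference was 1.02 (edgeR adjusted p = 0.00194).

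The thinned share of cells with a Ly6a UMI fell from 18.0% to 9.64% in the graft and from 16.1% to 7.86% in the spleen, each with an exact permutation p of 0.0357, and was 2.37% in naive spleen. In CD8-UMI cells of the spleen it fell from 8.94% to 3.60% (exact permutation p = 0.0357), and the 3 week share was 1.26 percentage points from that of naive spleen (exact permutation p = 0.183). B cells by marker in naive spleen had one in 24.0% of cells.

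The Ly6a difference between graft and spleen was larger in CD8-UMI cells, a set that also leaves out the cells with neither UMI. Over all cells the graft stood -0.03 ± 0.14 log2 units from the spleen at 1 week (edgeR adjusted p = 0.865) and 0.50 ± 0.12 above it at 3 weeks (edgeR adjusted p = 0.000995). In CD8-UMI cells the means were 180.5 CPM ± 33.8 in the graft and 119 CPM ± 21.8 in the spleen at 1 week (SD, n = 3 each), and 122 CPM ± 9.9 and 40.4 CPM ± 14.9 at 3 weeks (SD, n = 5 each), or 0.60 (edgeR adjusted p = 0.00762) and 1.62 (edgeR adjusted p = 4.93e-09) higher in the graft. In thinned cells of the 1 week spleen 27.6% of Cd4-UMI cells and 8.94% of CD8-UMI cells had a Ly6a UMI.

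Plac8 was higher at 1 week than at 3 weeks in both tissues. The grafts gave 295, 369 and 435 CPM and the recipient spleens 272, 359 and 266 CPM at 1 week, and the 2 ranges overlapped. At 3 weeks the grafts gave 103, 112, 135, 79.7 and 127 CPM and the spleens 104, 97.9, 108, 98.2 and 105 CPM, all below the 1 week libraries of their tissue. Plac8 fell by 1.72 ± 0.15 on the log2 scale in the graft (edgeR adjusted p = 8.88e-08) and by 1.54 ± 0.09 in the spleen (edgeR adjusted p = 1.32e-08; 1.20 in CD8-UMI cells, edgeR adjusted p = 3.05e-08), and its thinned share went from 24.3% to 8.86% and from 16.7% to 7.45% of cells, each with an exact permutation p of 0.0357. The changes of the 2 tissues were not shown to differ over all cells (-0.18 ± 0.19, edgeR interaction adjusted p = 0.491). In CD8-UMI cells the graft change was lower by 0.60 than that of the spleen, a difference of -0.60 ± 0.19 (edgeR interaction adjusted p = 0.0182). The naive libraries gave 154, 77.1, 142, 106 and 78.7 CPM, 1.41 ± 0.17 log2 units below the 1 week spleen (edgeR adjusted p = 3.09e-06), which stood 1.66 above naive in CD8-UMI cells (edgeR adjusted p = 3.32e-07). Monocyte and macrophage markers summed to 159 to 176 CPM in the 1 week spleens and 56.2 to 80.7 CPM in naive spleen (130 to 149 and 54.5 to 78.7 CPM in CD8-UMI cells), and neutrophil markers to 44.9 to 71.5 and 0.202 to 49.8 CPM. In naive spleen Plac8 stood at 1921 CPM in monocytes by marker, 640 CPM in B cells by marker and 149 CPM in cells with CD8 and CD3 UMIs. The part of such cells in the rise was not tested. At 3 weeks the spleen was -0.13 ± 0.13 from naive over all cells (edgeR adjusted p = 0.506) and 0.45 ± 0.13 above it in CD8-UMI cells (edgeR adjusted p = 0.0243). Graft and spleen at 3 weeks differed by 0.12 (edgeR adjusted p = 0.323) over all cells and by -0.50 (edgeR adjusted p = 0.000371) in CD8-UMI cells, where the spleen had 159 CPM ± 9.6 and the graft 112 CPM ± 21.7 (SD, n = 5 each).

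Ly6e moved least. Its group means lay between 438 CPM ± 42.4 in the 1 week graft and 676 CPM ± 45.5 in the 1 week spleen (SD, n = 3 each), and when the 9 groups were ordered by mean, every group overlapped the next. The 1 week spleens gave 674, 723 and 632 CPM against 473, 388, 478, 441 and 445 CPM in naive spleen, 0.60 ± 0.07 higher on the log2 scale (edgeR adjusted p = 3.23e-06). The 3 week spleens stood 0.41 ± 0.08 above naive (edgeR adjusted p = 0.000247). In CD8-UMI cells these differences were 0.34 (edgeR adjusted p = 0.00087) and 0.26 (edgeR adjusted p = 0.0189). B cells by marker in naive spleen held Ly6e at 1746 CPM (81.6% of thinned cells) and cells with CD8 and CD3 UMIs at 547.5 CPM (38.9%), and the B cell markers given above were higher in the same spleens than in naive spleen, and their part in the Ly6e result was not tested. The graft was below the spleen at 1 week, by -0.63 ± 0.10 (edgeR adjusted p = 0.000464) over all cells and -0.42 (edgeR adjusted p = 0.00603) in CD8-UMI cells. From 1 to 3 weeks the graft libraries went from 487, 406 and 422 CPM to 489.5, 519, 532, 536 and 508 CPM, a rise of 0.24 ± 0.08 with library totals as the scale (edgeR adjusted p = 0.0132), which turned to -0.14 with TMM factors (edgeR adjusted p = 0.0832) and to -0.15 with DESeq2 (adjusted p = 0.0295). TMM removed a shift of 0.38 log2 units in this comparison, and the median of all genes was 0.41, so Ly6e rose by less than the median gene.

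The number of members called has to be read against broad change. From 1 to 3 weeks in the graft, all 4 tested members passed the edgeR test (adjusted p under 0.05), 1 higher and 3 lower, and 75.0% of 11693 genes passed (75.0% in CD8-UMI cells as well). Of the genes called in that comparison 71.3% were higher with library totals and 49.7% with TMM factors. In the spleen over the same weeks 3 of 5 members passed, against 56.2% of all genes, and 2 of 5 in CD8-UMI cells, against 48.6%. The member lost was Ly6c1, at 0.78 over all cells (edgeR adjusted p = 0.00237), 0.67 in CD8-UMI cells (edgeR adjusted p = 0.196) and 0.66 with DESeq2 (adjusted p = 0.0709). Ly6e, at -0.19 (edgeR adjusted p = 0.0922), passed with TMM factors (-0.32, edgeR adjusted p = 0.0127) and with DESeq2 (-0.32, adjusted p = 0.00797), so that 4 of 5 passed with TMM. Of 10416 genes 2677 were called higher and 2843 lower with TMM there. Between graft and spleen at 1 week 2 of 5 passed over all cells (51.4% of genes) and 4 of 5 in CD8-UMI cells (49.1% of genes). The members gained there were Ly6a (0.60, edgeR adjusted p = 0.00762) and Ly6c2 (-0.46, edgeR adjusted p = 0.0236), with signs opposite to those over all cells. At 3 weeks 4 of 5 passed in each set (67.5% and 65.5% of genes). The 4 called at 3 weeks were not the same in CD8-UMI cells, where Plac8 passed and Ly6e did not. Ly6e was -0.20 ± 0.07 over all cells (edgeR adjusted p = 0.0266) and -0.04 in CD8-UMI cells (edgeR adjusted p = 0.637), and its call was lost without spleen library 2 (-0.18), 3 (-0.18) or 5 (-0.15). Against naive spleen all 5 passed in the 1 week spleen (60.2% of genes, 57% in CD8-UMI cells) and 4 of 5 in the 3 week spleen, where the background was lower, 22.4% of genes and 12.4% in CD8-UMI cells. In CD8-UMI cells the 4 members tested in that comparison, all but Ly6c1, passed and were higher than in naive spleen. In the difference between the 2 tissues' changes 4 of 5 passed, all but Plac8, and 2 of 5 with TMM factors, Ly6c1 (-2.14, edgeR adjusted p = 0.0436) and Ly6c2 (-2.56, edgeR adjusted p = 1.6e-10). Of 12319 genes 40.1% passed that test with library totals, and with TMM 2294 were called higher and 2241 lower. In CD8-UMI cells Ly6c1 gave -1.15 in that test (edgeR adjusted p = 0.347). The share of called genes that were higher moved with the scaling elsewhere too, from 62.5% with library totals to 48.5% with TMM factors in the spleen at 3 against 1 week, from 70.0% to 51.4% in graft against spleen at 3 weeks, from 65.8% to 53.1% in the 3 week spleen against naive, and from 72.8% to 50.6% in the difference of changes. The comparisons with naive spleen share the naive libraries, and those of graft and spleen share the libraries of each week.

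Within libraries of most groups, Ly6c2 and Plac8 were more frequent in cells with a UMI of Ccl5, a chemokine gene of memory and effector CD8+ T cells. These splits are descriptions with no test, and they took all cells of a matrix, CD8-UMI cells or not. In the 3 week spleen Cd4-UMI cells had Ly6c2 in 0.793% and CD8-UMI cells in 24.4%, and Ly6c1 in 7.05% and 0.294%. The part of that mixture in the splits was not tested. In naive spleen 54.6% of thinned cells with a Ccl5 UMI and 15.2% of the others had a Ly6c2 UMI, higher in 5 of 5 libraries, and in the 3 week spleen 42.5% and 7.36%, also in 5 of 5. In the 1 week graft the shares were 26.0% and 14.7% (3 of 3 libraries), and in the 3 week graft 3.94% and 3.43% (4 of 5). Cells of the 3 week graft with Ccl5 thus had a Ly6c2 share of 3.94% where those of the spleen had 42.5%. A Ccl5 UMI was found in 21271 of 22206 thinned graft cells and 1189 of 5838 thinned spleen cells, so these sets are not alike. Plac8 was found in 29.2% of Ccl5 cells and 16.8% of the others in the 1 week graft, 9.05% and 4.46% in the 3 week graft, and 12.4% and 6.22% in the 3 week spleen, in the same direction in every library of these groups. In naive spleen the Plac8 shares were 13.8% and 8.06%, higher in 4 of 5 libraries. The exceptions were the rejecting spleen, with Plac8 in 10.5% of Ccl5 cells and 10.99% of the others, and the labelled spleen at 24 weeks, with Ly6c2 in 3.18% and 4.53%, lower in 2 of 3 libraries. Ly6c1 went the other way in the 3 week spleen, 0.588% against 4.39%, lower in all 5 libraries.

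**Figure D3:**
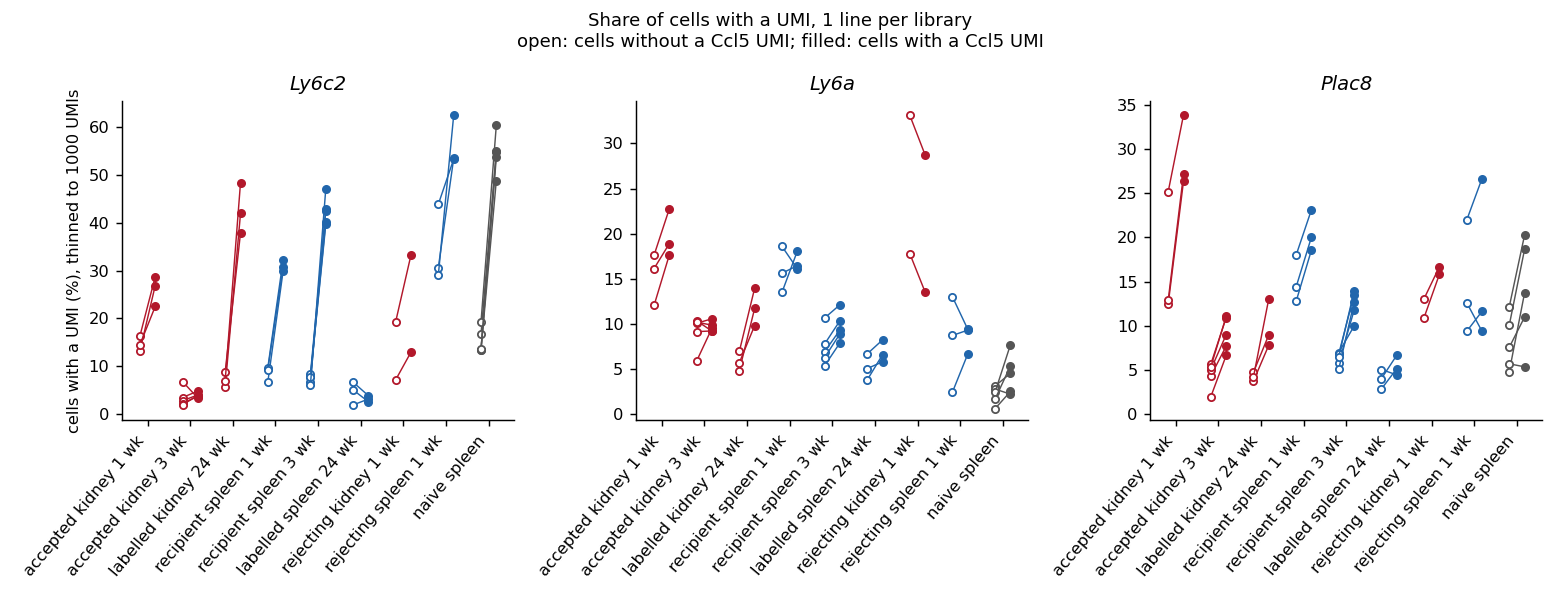
Share of cells with a UMI of Ly6c2, Ly6a or Plac8 after thinning to 1000 UMIs per cell (percent, y axis) in cells without and with a Ccl5 UMI, 1 point per library, in the 9 groups (x axis). The gap for Ly6c2 is wide in naive spleen (15.2 and 54.6%) and narrow in the 3 week graft (3.43 and 3.94%), where 21271 of 22206 cells had a Ccl5 UMI.

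The cells were also split by Pdcd1 and by division. In the grafts, cells with a UMI of Pdcd1, the gene of the inhibitory receptor PD-1, had Ly6c2 less often, 18.8% against 22.3% at 1 week (3 of 3 libraries) and 2.54% against 4.72% at 3 weeks (5 of 5), and Ly6a less often, 16.2% against 18.5% (3 of 3) and 7.92% against 10.6% (5 of 5). Ly6e was also less frequent in Pdcd1 cells in every library, 31.0% against 34.6% at 1 week and 36.0% against 40.9% at 3 weeks. Plac8 was more frequent in Pdcd1 cells of the 1 week graft, 26.9% against 23.6% (higher in 3 of 3), and of the rejecting graft, 15.1% against 12.3% (2 of 2), and less frequent in those of the 3 week graft, 8.01% against 9.36% (lower in 4 of 5). In the 1 week spleen, where only 78 cells in all were counted with Pdcd1, Ly6a was found in 33.4% of them and 16.0% of the others (higher in 3 of 3), and Plac8 in 6.29% and 16.7% (lower in 3 of 3). Dividing cells, those with UMIs of at least 2 of 5 proliferation genes, made up 1259 of 5039, 762 of 3021 and 4130 of 8407 cells of 1 week graft libraries 1 to 3. Those counts are from unthinned cells. Defined again on thinned cells, dividing cells had Ly6c2 in 13.6% against 23.4% of the others and Ly6e in 38.5% against 32.6%. In the 1 week spleen dividing cells had Ly6a in 30.4% against 15.6% (higher in 3 of 3), where the graft gave 17.4% against 18.2% (lower in 3 of 3). The splits by Pdcd1 and by division took all cells, CD8-UMI cells or not. In the 1 week spleen Cd4-UMI cells had Ly6a in 27.6% and CD8-UMI cells in 8.94%, and Plac8 in 8.81% and 23.55%. The part of that mixture in the spleen splits was not tested. Without dividing cells the 1 week graft stood above the spleen in Ly6c2 by 0.57 (edgeR adjusted p = 0.00499) and in Plac8 by 0.61 (edgeR adjusted p = 0.00409), where all cells had given 0.12 (edgeR adjusted p = 0.516) and 0.29 (edgeR adjusted p = 0.131). In CD8-UMI cells, dividing cells included, the values were -0.46 (edgeR adjusted p = 0.0236) and 0.09 (edgeR adjusted p = 0.627). Ly6c2 and Plac8 were found together more often than their shares: 50.1% of cells with Ly6c2 had Plac8 in the 1 week graft, against 43.7% of all cells, and 42.9% against 22.0% in the 3 week spleen. Deeper cells are more likely to hold both, so these unthinned shares are a description. In the 3 week spleen both genes were also rarer in Cd4-UMI than in CD8-UMI cells (Ly6c2 0.793% and 24.4%, Plac8 2.00% and 12.45%, thinned). The part of that mixture in the joint shares was not tested.

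In the rejecting model the members were compared with recipients of another strain, so strain, Ly6 alleles and rejection cannot be told apart between the models. The rejecting spleens had the highest Ly6c2 of all groups, 511, 672 and 539.9 CPM, all above every naive library. The difference was 0.67 ± 0.11 on the log2 scale with library totals (edgeR adjusted p = 3.21e-05), 0.34 with TMM factors (edgeR adjusted p = 0.0156) and 0.34 with DESeq2 (adjusted p = 0.0135). Ly6a was 116, 52.2 and 165 CPM there, 2.34 ± 0.24 above naive (edgeR adjusted p = 2.58e-08). Plac8, at 169.9, 241 and 168 CPM, was 0.68 ± 0.22 above naive (edgeR adjusted p = 0.0152), but 0.36 with TMM factors (edgeR adjusted p = 0.212), 0.54 without dividing cells (edgeR adjusted p = 0.0646) and 0.73 without library 1 (edgeR adjusted p = 0.0595). CD8-UMI cells gave 0.69 for Ly6c2 (edgeR adjusted p = 3.49e-05), 2.50 for Ly6a (edgeR adjusted p = 9.11e-09) and 0.62 for Plac8 (edgeR adjusted p = 0.0275). Ly6e, at 0.22 (edgeR adjusted p = 0.222), passed without library 2 (0.39, edgeR adjusted p = 0.0073). In that comparison 3 of 4 tested members passed and 45.1% of genes did, 76.2% of them higher with library totals and 52.5% of those called with TMM factors. Library 2 of the rejecting spleen held 56 cells, and neutrophil markers summed to 30.2 to 1040 CPM in these libraries, whose part in the result was not tested.

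The 2 rejecting graft libraries were unlike each other in the Ly6 genes. Ly6a was 171 CPM in library 2 and 456 CPM in library 3, Ly6c2 120.3 and 295 CPM, and Plac8 156 and 151 CPM. Cells with neither a CD8 nor a Cd4 UMI made up 21.9 to 23.4% of these libraries and none of the rejecting spleen. Dividing cells were 160 of 1233 cells in library 2 and 588 of 951 in library 3. Plac8 was below the accepted 1 week graft in both, by -1.25 ± 0.20 (edgeR adjusted p = 0.000853). It was the only one of 4 tested members to pass with library totals, where 59.4% of genes did. Plac8 gave -1.95 with TMM factors (edgeR adjusted p = 0.000405) and -1.97 with DESeq2 (adjusted p = 5e-14). It stood at 163 CPM in CD8-UMI cells of the rejecting graft, and at 253 CPM in rejecting CD45+ cells with CD8 and CD3 UMIs. That second set was not counted for the accepted graft. Ly6e turned from 0.07 (edgeR adjusted p = 0.744) to -0.61 with TMM factors (edgeR adjusted p = 0.0177) and -0.63 with DESeq2 (adjusted p = 0.00225). Of the called genes 82.4% were higher with library totals and 51.7% with TMM factors, since TMM removed a shift of 0.69. Ly6a differed from the accepted graft by 0.54 ± 0.35 (edgeR adjusted p = 0.213), by 1.08 with library 3 alone (edgeR adjusted p = 0.000238) and, with the sign turned, by -0.15 with TMM factors (edgeR adjusted p = 0.748) and -0.16 with DESeq2 (adjusted p = 0.765). Ly6c2 differed by -0.45 ± 0.34 (edgeR adjusted p = 0.28), by -1.24 with library 2 alone (edgeR adjusted p = 0.0004) and by -1.14 with TMM factors (edgeR adjusted p = 0.0288). A lone library is assumed in those fits to vary like the accepted ones. Monocyte and macrophage markers summed to 460 to 527 CPM in the rejecting graft and 214 to 294 CPM in the accepted one, and monocytes by marker in the rejecting CD45+ cells had a Ly6c2 UMI in 40.2% and a Ly6a UMI in 65.6% of thinned cells. The part of such cells in the result was not tested.

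Between rejecting graft and rejecting spleen Ly6a was 1.39 ± 0.41 higher (edgeR adjusted p = 0.0336) and Ly6c2 -1.45 ± 0.35 (edgeR adjusted p = 0.0114) in the graft, 2 of 4 tested members against 16.1% of 8205 genes, of which 66.9% were higher (49.2% with TMM factors). Ly6a became 0.50 without rejecting graft library 3, a fit that leaves 1 rejecting graft library. It was 1.16 with TMM factors (edgeR adjusted p = 0.0797), but 1.73 without dividing cells (edgeR adjusted p = 0.00274). Its call was also lost in CD8-UMI cells (1.14, edgeR adjusted p = 0.0705), with DESeq2 (1.25, adjusted p = 0.0945), without rejecting spleen library 1 (1.37, edgeR adjusted p = 0.177) or library 2 (1.17, edgeR adjusted p = 0.0939). Ly6c2 gave -1.42 in CD8-UMI cells (edgeR adjusted p = 0.0154), and lost its call without dividing cells (-0.85, edgeR adjusted p = 0.0979) and without rejecting spleen library 1 (-1.53, edgeR adjusted p = 0.0539). No member passed in the test of whether graft and spleen differed more in rejection than in acceptance, by edgeR, where 1.42% of 13135 genes did (75.9% of them higher, 57.7% with TMM factors). Ly6c2 gave -1.56 ± 0.38 (adjusted p = 0.0557) and Ly6a 1.38 ± 0.46 (adjusted p = 0.148) there. These became -0.95 (edgeR adjusted p = 0.358) and 0.51 (edgeR adjusted p = 0.717) in CD8-UMI cells. Over all cells 2 of 5 members, Ly6c2 and Ly6a, had an unadjusted p under 0.05, as had 16.1% of all genes tested, and 1 member, Ly6c2, passed with DESeq2 (-1.77, adjusted p = 0.00151). Ly6c2 also passed with TMM factors (-1.74, edgeR adjusted p = 0.0362), and Ly6c2 and Ly6a both passed without dividing cells (-1.44 and 1.54, edgeR adjusted p = 0.0431 and 0.0411). Ly6c2 was -2.35 without rejecting graft library 3, and Ly6a 1.90 without rejecting graft library 2. Those fits leave 1 rejecting graft library, so the spread comes from the other groups.

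At 24 weeks the libraries are named by their deposited labels, with the limit on cell composition given above. The libraries labelled kidney had Ly6c2 at 254, 286 and 226 CPM and Ly6c1 at 34.6, 38.6 and 47.2 CPM, and those labelled spleen 44.5, 75.1 and 66.0 CPM and 0.199, 1.95 and 0.471 CPM. Labelled kidney against labelled spleen gave 2.06 ± 0.15 for Ly6c2 (edgeR adjusted p = 8.07e-09) and 5.65 ± 0.32 for Ly6c1 (edgeR adjusted p = 4.02e-10), the opposite in sign of -2.24 and -7.82 at 3 weeks. These were 2 of 5 members, with 53.1% of genes called and 53.7% in CD8-UMI cells. In CD8-UMI cells Ly6c2 was 2.59 (edgeR adjusted p = 4.19e-10) and Ly6c1 4.15 (edgeR adjusted p = 1.27e-06). Ly6a, at -1.43 (edgeR adjusted p = 1.1e-06), and Plac8, at 0.77 (edgeR adjusted p = 0.000131), passed in those cells as well. Over all cells Ly6e passed with TMM factors (0.39, edgeR adjusted p = 0.00178). Of the called genes 31.0% were higher in the labelled kidney with library totals and 48.4% with TMM factors. Against 3 weeks, 4 of 5 members passed in the labelled kidney (73.5% of genes, 71.1% in CD8-UMI cells, with 22.6% of the calls higher, or 48.4% with TMM factors) and 4 of 5 in the labelled spleen (60.6% and 58.4%). Of the calls in the labelled kidney, Ly6a (-0.63) became -0.21 with TMM factors (edgeR adjusted p = 0.16) and -1.99 in CD8-UMI cells (edgeR adjusted p = 1.72e-09). Plac8 (-0.47) became -0.05 with TMM factors (edgeR adjusted p = 0.776) and 0.14 in CD8-UMI cells (edgeR adjusted p = 0.403). Ly6e went from 0.05 (edgeR adjusted p = 0.53) to 0.47 with TMM factors (edgeR adjusted p = 1.88e-05) and to -0.26 in CD8-UMI cells (edgeR adjusted p = 0.00636). In the labelled spleen CD8-UMI cells gave 1.06 for Ly6a (edgeR adjusted p = 1.36e-05, 0.02 over all cells), -1.13 for Plac8 (edgeR adjusted p = 9.02e-10, -0.49 over all cells) and -0.20 for Ly6e (edgeR adjusted p = 0.0608, -0.35 over all cells). Set beside the other tissue at 3 weeks, Ly6c2 in CD8-UMI cells was 342 CPM ± 42.5 (SD, n = 3) in the labelled kidney and 437 CPM ± 36.6 (SD, n = 5) in the 3 week spleen, and Plac8 124 CPM ± 24.3 and 159 CPM ± 9.6.

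The wider family was mostly silent. Of 37 other Ly6 and uPAR genes 35 were in at least 1 matrix, and 6 reached a group mean of 10 CPM: Ly6d, Ly6g5b, Ly6i, Ly6k, Lypd6b and Plaur. Ly6d, a surface marker of B lineage cells, was 241 CPM ± 80 in the 1 week recipient spleens (SD, n = 3) and 8.31 CPM ± 3.76 in naive spleen (SD, n = 5), beside the B cell markers given above, and had 0 UMIs in the rejecting graft, which allows up to 0.5496 CPM over both libraries. Ly6g5b rose in the graft from 7.30 CPM ± 3.30 (SD, n = 3) at 1 week to 27.9 CPM ± 5.8 (SD, n = 5) at 3 weeks (2.00 ± 0.26, edgeR adjusted p = 7.24e-06), opposite to Ly6a and Ly6c2. Ly6i, a close relative of Ly6a and Ly6c1 that shares windows of their ends, was higher in the rejecting than the accepted graft by 2.51 ± 0.71 (edgeR adjusted p = 0.014).

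A list of 56 interferon-response genes was set beside the members, since Ly6a and Ly6e are known to respond to interferon. From 1 to 3 weeks in the graft, where Ly6a fell, 37 of the 52 tested list genes were higher and 7 lower, with a median of 0.78 against 0.41 for all genes, of which 53.5% were higher and 21.5% lower. In the 1 week spleen against naive, where Ly6a rose by 3.13, 13 of 48 were higher and 18 lower, with a median of -0.17 against -0.12 for all genes, of which 25.0% were higher and 35.2% lower. These counts are a description of the list beside that background. They were taken over all cells only. CD8-UMI cells made up 40.4 to 47.8% of the 1 week spleen libraries and 93.7 to 96.9% of the naive ones, and in them Ly6a rose by 2.39. The part of that mixture in the list counts was not tested. Of 8 naive cell genes 7 were lower and 1 higher at 3 weeks than at 1 week in the graft, and of 13 memory and effector genes 8 were higher and 1 lower, beside the same 53.5% and 21.5% of all genes.

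Over the 32 libraries of 9 groups, the genes most like each member in log2(CPM + 1) out of 2611 whose mean reached 50 CPM were taken as a description, since libraries share groups. Ly6c2 was closest to Slamf6 (Pearson r = 0.944), Glipr2 (0.943) and Dkc1 (0.926). Ly6c1 was closest to Tspan32 (0.886), Trib2 (0.836) and Igfbp4 (0.820). Ly6a was closest to Capg (0.867), Chmp2a (0.846) and Anxa2 (0.830), and Plac8 to Psmd8 (0.805), Timm23 (0.801) and Txndc17 (0.801). The closest genes to Ly6e had lower values, Cd79a (0.664), Arl2bp (0.650) and H2-Ab1 (0.645), and both Cd79a and H2-Ab1 are B cell genes.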

How the data were processed

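Single-cell 3′ RNA libraries of CD45+ cells from accepted and rejected kidney grafts and spleens were deposited by the authors as UMI count matrices, with cell calls made by Cell Ranger on mm10 per the submitters' notes (version not given in the sources used here). The 9 CD8 matrices hold the cells the authors had assigned to CD8+ T cells, and 2 CD45+ matrices served as background. No doublet caller was run, and how doublets were treated is not given in the sources used here. Members and lists were chosen with earlier results of these data known. The text names the 5 members, listed family genes with a group mean of at least 10 CPM, and the 3 genes most like each member.

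UMIs were summed per library tag and tested with edgeR 4.0.16 (R 4.3.3, quasi-likelihood, library totals, low counts filtered, Benjamini-Hochberg over all genes tested, threshold 0.05), after a check on simulated counts. Shares of cells came from cells thinned to 1000 UMIs (seed 7, Python 3.11.15, numpy 2.4.6, scipy 1.17.1), leaving out up to 235 shallower cells in 1 library, all in spleens, with two-sided exact permutation tests over libraries. The exact permutation p-values were not adjusted for the number of tests. Intervals and floors cover counting error only. CD8-UMI cells, dividing cells (UMIs of at least 2 of 5 proliferation genes), TMM, DESeq2 1.42.0, no filter, 1 fit over 9 groups, leaving out libraries, other thinning depths and a replicate block were alternatives. The split by Cd4 UMIs, the single rejecting libraries and the block were chosen after the data were seen. Whether tag numbers pair graft and spleen was not shown. At 3 weeks the deviations of same-numbered libraries from their group means correlated at 0.12 to 0.518 in all 5 pairs. Libraries 2, 3 and 5 correlated more with another number (0.175 against 0.205, 0.196 against 0.29, 0.12 against 0.179). At 1 week the same-number values were 0.311, 0.0186 and 0.304. The block changed no member's call at 3 weeks.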

Additional observations from a re-analysis of the deposited data

Results flagged for a closer look

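Of 30 groups of 5 libraries examined for a library far from the rest, 2 stood out, and chance flags about 1 in 20 such groups. In the 3 week recipient spleens Ly6c2 in library 3 was 301 CPM, where the others lay between 280 and 285 CPM. In the 3 week grafts library 1 was the only one in which thinned cells held a Ly6c1 UMI, 0.0865% of its cells, where the others had 0.

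The change from 1 to 3 weeks differed between graft and recipient spleen in 4 members by the edgeR interaction test. The difference, graft minus spleen on the log2 scale, was 0.532 for Ly6a (adjusted p = 0.0372), -1.96 for Ly6c1 (adjusted p = 0.047), -2.36 for Ly6c2 (adjusted p = 5.24e-10) and 0.429 for Ly6e (adjusted p = 0.0104). Of all genes 40.1% passed this test.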

How the results depend on the processing

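With other scaling, Ly6e turned from higher to lower at 3 weeks in the graft (-0.15 by DESeq2, -0.14 by TMM) and in the rejecting against the accepted graft (-0.63 and -0.61). In CD8-UMI cells the sign turned for Ly6e (-0.26) and Plac8 (0.14) in the labelled kidney at 24 against 3 weeks, for Ly6a (0.60) and Ly6c2 (-0.46) in graft against spleen at 1 week, for Plac8 at 3 weeks (-0.50), for Ly6c2 against naive in the spleen at 1 week (0.24) and 3 weeks (0.32), and for Plac8 at 3 weeks (0.45). Shares of cells turned for Ly6c2 in CD8-UMI cells against naive (5.59 and 5.23 percentage points) and for Plac8 in graft against spleen (-3.56), and without thinning for Plac8 there (-5.69) and for Ly6e in the graft at 3 weeks (-1.05) and in the spleen against naive at 1 week (-6.67) and 3 weeks (-0.609).

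The count of members called went, for graft against spleen at 1 week, from 2 to 4 in CD8-UMI cells and without dividing cells, and at 24 weeks from 2 to 4 in CD8-UMI cells. In CD8-UMI cells 49.1% of all genes passed at 1 week and 53.7% at 24 weeks. In the rejecting graft against the accepted it went from 1 to 3 with DESeq2 and TMM, and against the rejecting spleen from 2 to 1 with DESeq2, TMM, CD8-UMI cells (Ly6a lost) or no dividing cells (Ly6c2 lost). With TMM 3443 of 12533 genes were called higher and 3222 lower against the accepted graft. Against the rejecting spleen 546 of 8205 were called higher and 564 lower with TMM. For the difference of changes the count went from 4 to 2 with DESeq2 and TMM, and for rejection against acceptance from 0 to 1 with DESeq2, TMM or no filter and to 2 without dividing cells. With TMM 2294 of 12319 genes were called higher and 2241 lower in the former, and 90 and 66 of 13135 in the latter. How many of all genes passed with DESeq2, without the filter, without dividing cells or, in the rejecting model, in CD8-UMI cells is not given here. Those counts of members are a description. Members whose share of cells had an unadjusted exact permutation p under 0.05 went from 2 to 4 in graft against spleen at 3 weeks (at least 2 UMIs, or no thinning). They went from 5 to 3 in the 1 week spleen against naive (no thinning) and from 4 to 2 in the 3 week spleen against naive (CD8-UMI cells). No share test was run over all genes. In 1 fit over all 9 groups 3 calls were lost, Ly6c2 in the 3 week spleen against naive (edgeR adjusted p = 0.171), Ly6e in the graft at 3 weeks (0.0846) and Ly6e in graft against spleen at 3 weeks (0.112). These causes were not tested.

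With 1 library left out, the count of members called ranged from 3 to 4 (graft 3 against 1 week, graft 24 against 3 weeks, spleen 3 against 1 week), 4 to 4 (spleen 24 against 3 weeks, 3 week spleen against naive), 5 to 5 (1 week spleen against naive), 2 to 3 (graft against spleen at 1 and 24 weeks), 3 to 5 (3 weeks), 2 to 4 (difference of changes, rejecting spleen against naive), 1 to 2 (rejecting against accepted graft), 0 to 2 (rejecting graft against spleen) and 0 to 1 (rejection against acceptance). Of 559 values with 1 library left out, 521 were counted as unchanged, 28 lost the call and 10 gained one. None turned sign where either fit had a call. A turn of sign with no call in either fit was counted as unchanged. Such turns occurred, as for Ly6a in graft against spleen at 1 week (-0.171 to 0.0738). The difference of changes in Ly6c1 lost its call in 9 of 16 such fits, as did that in Ly6a. Ly6e in the graft at 3 weeks lost it without 1 week library 2 (0.19), and Plac8 in the labelled kidney at 24 weeks without library 3 (-0.32). Shares of cells with 1 library left out had no test. How many of all genes passed in the fits with 1 library left out is not given here, so those counts of members are a description.

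A replicate block by tag number changed 1 of 19 values, Plac8 in graft against spleen at 1 week, 0.29 with an edgeR adjusted p of 0.0398. That the numbers pair the libraries was not shown. No other call changed. Ly6c1 was near the counting floor in the accepted grafts at 1 and 3 weeks. Their libraries held 0 to 8 Ly6c1 UMIs at totals of 9756240 to 25960721 UMIs. The 3 week spleens held 148 to 252 at totals of 3820842 to 5024862 UMIs.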
